A study of Homo sapiens with 15 samples.

Results

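The genes described here are 9 human genes linked to beta-adrenergic and cyclic AMP signalling, out of 60649 human genes in the deposited count table. They were taken by name as AKAP12, NR4A1, NR4A2, NR4A3, CREM, ATF3, SIK1, PDE4B and PDE4D, and all 9 had enough counts to be tested among 15435 human genes. RNA came from tumours that A549 cells, an established line of human lung adenocarcinoma, formed under the skin of BALB/c nude mice. Nude mice lack a thymus and so most T cells, and this holds for all groups, which also share the transplanted line. The labels name no engineered change in the cells or the animals and give no age. Mice of the no-stress group (n = 5) were left unrestrained. For the stress group (n = 5) the labels place restraint 7 days before the transplantation, and for the post-stress group (n = 5) 12 days after it, without saying whether these are durations or starting days. Each tumour gave 1 library of whole-tumour RNA.

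Beta-adrenergic receptors bind adrenaline and noradrenaline, the hormones of the acute stress response, and act through the G protein Gs to switch on adenylate cyclases, which make cyclic AMP. Cyclic AMP releases the catalytic subunits of protein kinase A, which phosphorylate the transcription factor CREB, and CREB binds the cyclic AMP response element in the promoters of its target genes. AKAP12 is a scaffold that holds protein kinase A at the cell membrane. PDE4B and PDE4D break cyclic AMP down, and NR4A1, NR4A2, NR4A3, CREM, ATF3 and SIK1 are genes that cyclic AMP switches on in many cell types. Growth factors, calcium, low oxygen and other cell stresses are also known to switch several of them on, so that the 9 genes do not report on cyclic AMP alone.

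The promoters of members that carry the core of the cyclic AMP response element are shown because the members are known as targets of CREB. RefSeq promoter windows of GRCh38.p14, which run from 250 bases before to 50 bases after an annotated start, were found for 8 of the 9 genes. They were searched on both strands for the full element TGACGTCA, which reads the same on either strand, and for its core TGACG, which the full element contains. Capitals mark these letters, also where the core lies on the other strand and reads CGTCA. The sequences run 5′ to 3′ on the strand of the gene, at chr9:99821764-99821876 (plus strand) for NR4A3, chr10:35195840-35195871 (plus strand) for CREM, chr21:43427241-43427360 (minus strand) for SIK1 and chr5:59587666-59587694 (minus strand) for PDE4D.
NR4A3: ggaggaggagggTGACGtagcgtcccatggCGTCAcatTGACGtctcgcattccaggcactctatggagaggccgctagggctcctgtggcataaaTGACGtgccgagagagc
CREM: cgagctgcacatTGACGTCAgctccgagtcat
SIK1: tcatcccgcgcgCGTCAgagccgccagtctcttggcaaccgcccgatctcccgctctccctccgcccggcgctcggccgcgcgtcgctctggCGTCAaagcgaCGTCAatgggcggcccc
PDE4D: agagggccccctTGACGccagcacatccc
The NR4A3 stretch holds 4 cores and the SIK1 stretch 3, while CREM was the only one of the 8 genes searched that has the full element. CREM has the core in 3 of its 7 windows; the stretch shown carries the full element and lies in 2 of them, and a further CREM window with 2 separate cores is not printed. The core was found in windows of 4 of these genes (NR4A3, CREM, SIK1 and PDE4D), beside 28.4% of 27305 genes with a window, and the full element in 1, beside 2.25%. The members have several windows each (30 in all for 8 genes), which gives a match more chances than 1 window would. Neither form was found in the windows of AKAP12, NR4A1, ATF3 and PDE4B. A match in these letters is a description of the sequence and not a measured binding site.

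Total counts per library ranged from 16729091 to 19680449 and counts on human genes from 12877165 to 15892705, so that 1 CPM (a level scaled to the human counts of a library) stands for about 13 to 16 counts. The share of counts on mouse genes was 22.6% ± 6.65 (SD, n = 5) in the no-stress group, 21.0% ± 2.34 in the stress group and 17.6% ± 4.93 in the post-stress group. The epithelial keratins KRT8 and KRT18 had CPM of at least 2983 and 963 in every library, and KRT7 had 476.55 to 989.09. Other epithelial markers were low, with CDH1 at 15.6 to 28.7 CPM and EPCAM at 6.29 to 21.3. KRT19 was near absent, at 0.0716 to 0.8924 CPM, and was not tested. None of the 5 tested epithelial markers passed the test in any comparison. Of 9 leukocyte markers on human genes, 2 had enough counts to be tested (ADGRE1 at 8.14 to 19.3 CPM and CD14 at 0.681 to 4.07) and neither passed, while PTPRC stayed at or below 0.143 CPM in every library. The summed CPM of these 9 was 11.8 to 24.2 in the no-stress group, 16.8 to 22.4 in the stress group and 9.65 to 17.5 in the post-stress group. Of 10 stroma and endothelium markers 6 were tested and none passed, with sums of 116 to 211, 126 to 179.6 and 90.8 to 227 CPM. COL1A1 was the highest of these markers in every library (41.6 to 197 CPM), DCN reached 48.3 and PECAM1 24.5, and COL1A2 and COL3A1 stayed at or below 0.210 and 0.414. The part of reads from other cells in the results was not tested. CDKN2A and CDKN2B, which A549 cells have lost, had no counts in 13 libraries, 36 counts together in stress replicate 4 and 12 in post-stress replicate 3. Without stress replicate 4 the number of the 9 genes that rose with stress was 5, and without post-stress replicate 3 it was 4, as with all libraries. A pair of libraries stood apart for the 9 genes. Stress replicate 1 had the highest CPM of all 15 libraries for 6 of them, and post-stress replicate 5 the lowest of its group for 6.

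In tumours of the stress group, 4 of the 9 genes rose against no stress and none fell (edgeR's quasi-likelihood test, p adjusted by Benjamini-Hochberg over all 15435 tested genes, threshold 0.05). These were AKAP12, NR4A2, NR4A3 and ATF3. Across all tested human genes 10.5% passed in either direction and 5.23% passed as higher. All 9 genes had a positive log2 fold change, with a median of 1.48, where 48.9% of all tested genes were positive and their median was -0.01. The 9 genes, and the pathway and marker lists below, were chosen with earlier results of these data known. Their counts and medians beside all genes are therefore descriptions. With post-stress, none of the 9 genes passed the test against no stress. There 0.842% of all tested genes passed in either direction and 0.596% as higher, and the median log2 fold change of the 9 genes was 1.34 beside -0.01 for all. Both comparisons use the same no-stress tumours, so that their values are given side by side and not as separate evidence. At an unadjusted p under 0.05, 7 of the 9 genes passed with stress (26.1% of all tested genes) and 5 with post-stress (15.2%). DESeq2's Wald test called 5 of the 9 with stress, beside 14.1% of all genes with an adjusted p there, and 5 with post-stress, beside 3.96%. It gave no adjusted p for SIK1 in any comparison, so that SIK1 could not be called there.

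**Figure D1:**
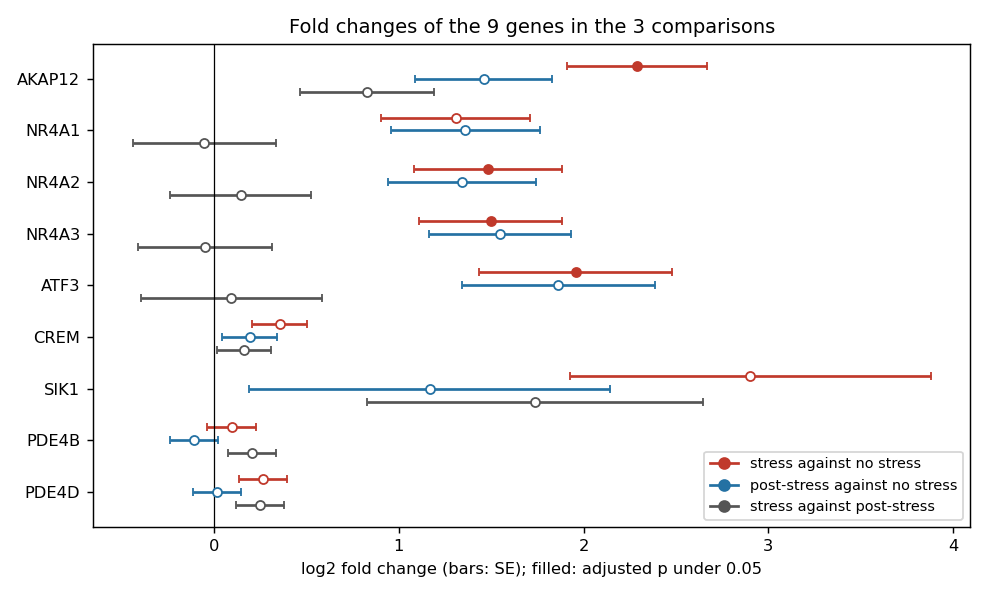
Log2 fold changes of the 9 genes (x axis, bars are 1 SE) in the 3 comparisons, with filled points for adjusted p under 0.05. The 4 filled points all belong to stress against no stress, and AKAP12 and SIK1 have the values farthest to the right there, with SIK1 carrying the widest bar.

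AKAP12 (chr6:151239999-151358557, plus strand, positions of GRCh38 in GENCODE 29 here and for the other members), the scaffold for protein kinase A, rose most of the genes that passed. Its CPM in the 5 no-stress tumours were 37.0, 67.0, 27.9, 45.3 and 93.0. In the stress tumours they were 404, 187, 249, 254 and 224, and in the post-stress tumours 196, 240, 109, 118 and 78.7. Every stress tumour lay above every no-stress tumour, and 4 of 5 post-stress tumours did, replicate 5 being the exception. For how many of all tested genes the groups do not overlap was not computed. A lack of overlap, here and for the genes below, is therefore a description. With stress the mean went from 54.0 ± 26.1 to 264 ± 82.8 CPM (SD, n = 5), a 4.88-fold rise (95% confidence interval 2.77 to 8.63, log2 fold change 2.29, SE 0.38, edgeR adjusted p = 0.00467). By log2 fold change AKAP12 ranked 21 among the 15435 tested genes. The post-stress mean was 148 ± 66.9 CPM, with a log2 fold change of 1.46 (SE 0.37) that missed the threshold (adjusted p = 0.0893). The difference between stress and post-stress was 0.83 on the log2 scale (SE 0.36, adjusted p = 0.413), so a difference between both restrained groups was not shown, and 0.0389% of all tested genes passed in that comparison. AKAP12 was called with stress in all 24 alternative fits, with adjusted p of at most 0.0172.

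Per kilobase of exon, AKAP12 moved within its family. Its level without stress was 6.18 CPM per kilobase, the sixth among 15 A-kinase anchoring proteins, and AKAP1, an anchor on mitochondria, was first with 20.2. With stress AKAP12 stood at 30.2 CPM per kilobase and AKAP1 at 19.71, and with post-stress they stood at 17.0 and 21.3. None of the 11 other tested anchoring proteins passed the test in any comparison. Of all tested genes 10.5% passed with stress (5.23% as higher), 0.842% with post-stress and 0.0389% between the restrained groups. No call among 11 genes is near these shares, so it is not read as a trait of the family. The rise was called for AKAP12 alone of its tested family, and the differences between family members were not themselves tested.

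**Figure D2:**
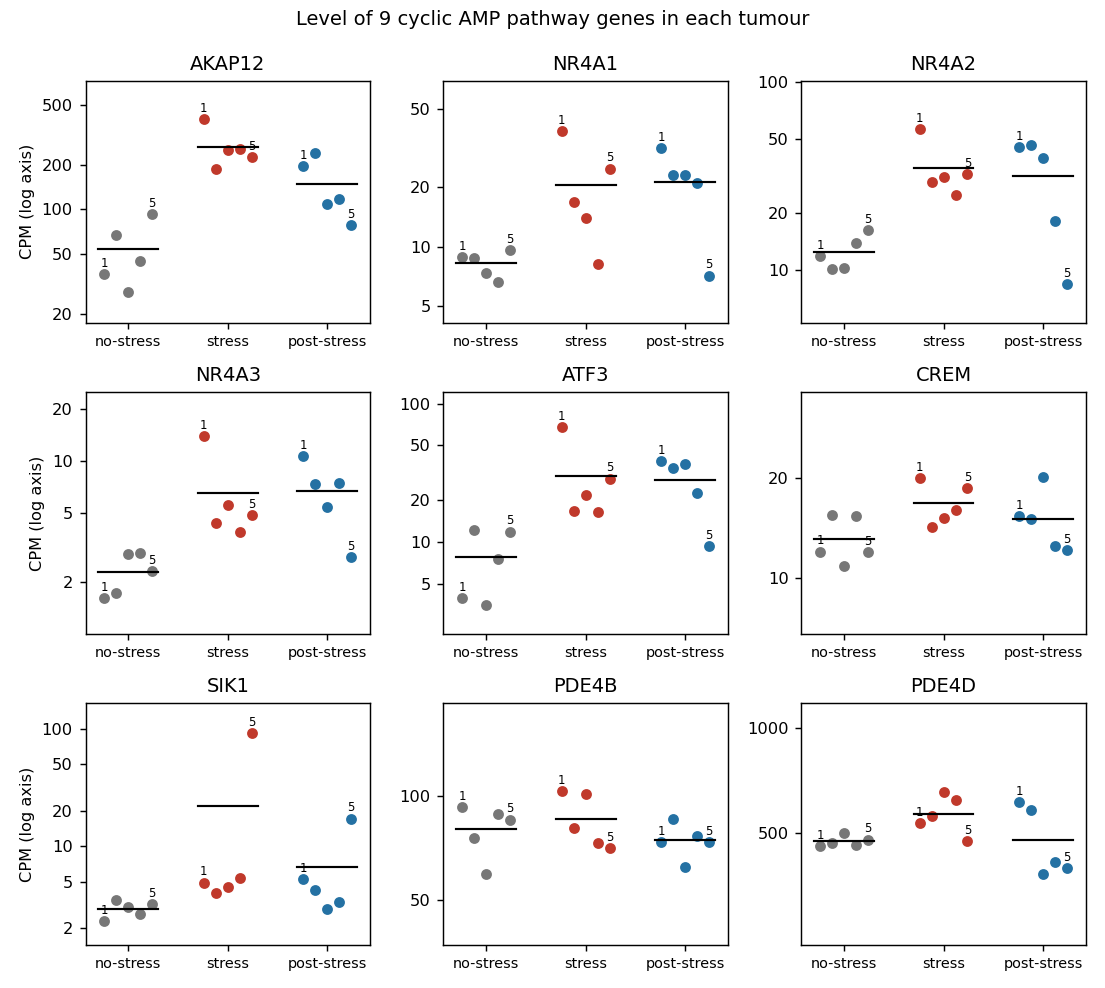
CPM of each of the 9 genes (log axes, a scale of its own per gene) in every tumour of the 3 groups, with horizontal lines at the group means and replicates 1 and 5 numbered. Stress replicate 1 lies at the top for AKAP12, NR4A1, NR4A2, NR4A3 and ATF3, post-stress replicate 5 lies near the no-stress tumours for the same genes, and SIK1 is high in replicate 5 of both restrained groups.

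The NR4A genes encode 3 orphan nuclear receptors that are switched on within minutes to hours of a signal, and NR4A2 and NR4A3 rose with stress. NR4A2 (chr2:156324432-156342348, minus strand) had CPM of 11.8, 10.1, 10.2, 13.9 and 16.2 without stress. It had 56.5, 29.3, 31.1, 24.9 and 32.2 with stress, and 44.97, 46.5, 39.2, 18.2 and 8.34 with post-stress. The lowest stress tumour stood above the highest no-stress tumour, while post-stress replicate 5 was the lowest of all 15 libraries. The rise with stress was 2.80-fold, from 12.4 ± 2.60 to 34.8 ± 12.4 CPM (SD, n = 5, log2 fold change 1.48, SE 0.40, edgeR adjusted p = 0.0339). For post-stress the mean was 31.4 ± 17.2 CPM and the log2 fold change 1.34 (SE 0.40, adjusted p = 0.137).

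NR4A3 (chr9:99821855-99866891, plus strand) was the least abundant of the family, with CPM of 1.62, 1.73, 2.91, 2.94 and 2.31 without stress. With stress its CPM were 13.9, 4.39, 5.59, 3.92 and 4.87, and with post-stress 10.7, 7.32, 5.40, 7.48 and 2.78. Again no stress tumour overlapped the no-stress range and 1 post-stress tumour, replicate 5, did. The rise with stress was 2.82-fold, from 2.30 ± 0.627 to 6.52 ± 4.14 CPM (SD, n = 5, log2 fold change 1.50, SE 0.39, edgeR adjusted p = 0.0239). The post-stress value was as large, with a mean of 6.74 ± 2.92 CPM and a log2 fold change of 1.55 (SE 0.39), but did not pass (adjusted p = 0.0696).

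NR4A1 (chr12:52022832-52059507, plus strand) did not pass in any comparison in the edgeR fit of all 15 libraries. Its CPM were 8.85, 8.78, 7.37, 6.59 and 9.59 without stress, 38.3, 16.8, 13.9, 8.18 and 24.8 with stress, and 31.4, 22.9, 23.1, 21.1 and 7.13 with post-stress. One tumour of each restrained group, stress replicate 4 and post-stress replicate 5, lay inside the no-stress range and the other 8 lay above it. The means were 8.24 ± 1.22, 20.4 ± 11.7 and 21.1 ± 8.79 CPM (SD, n = 5), with log2 fold changes of 1.31 (SE 0.40, edgeR adjusted p = 0.0554) for stress and 1.36 (SE 0.40, adjusted p = 0.133) for post-stress. NR4A1 passed with stress in DESeq2's Wald test (adjusted p = 0.0157), with only the compared groups in the edgeR fit (0.0475), without stress replicate 4 (0.0195) and without post-stress replicate 5 (0.0258), and with post-stress in DESeq2's Wald test (0.0290). Per kilobase the order within the family was NR4A2, NR4A1, NR4A3 in every group, at 3.14, 1.13 and 0.364 CPM per kilobase without stress.

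ATF3 (chr1:212565334-212620777, plus strand), a transcription factor of the CREB and ATF family that many cell stresses switch on, rose with stress. Its CPM were 3.93, 12.2, 3.47, 7.52 and 11.9 without stress, 67.5, 16.9, 21.7, 16.4 and 28.7 with stress, and 38.3, 34.1, 37.0, 22.7 and 9.34 with post-stress. The stress and no-stress ranges did not overlap, and post-stress replicate 5 lay inside the no-stress range. The mean went from 7.80 ± 4.17 to 30.3 ± 21.4 CPM with stress (SD, n = 5), a 3.88-fold rise (log2 fold change 1.96, SE 0.52, edgeR adjusted p = 0.0332). With post-stress the mean was 28.3 ± 12.3 CPM (log2 fold change 1.86, SE 0.52, adjusted p = 0.120).

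The calls for NR4A2, NR4A3 and ATF3 with stress depended on single libraries and on the fit. With 1 library left out at a time, the call was lost in 8 of 15 fits for NR4A2, 3 of 15 for NR4A3 and 5 of 15 for ATF3, and in the 9 other alternatives it was lost in 5, 3 and 6. Without stress replicate 1 all 3 were lost (adjusted p = 0.0874, 0.0610 and 0.0847), as they were without no-stress replicate 1 (adjusted p = 0.0852, 0.0709 and 0.0908), which left AKAP12 as the only one of the 9 genes that passed. For post-stress, NR4A2 and NR4A3 passed without post-stress replicate 5 (adjusted p = 0.0264 and 0.0308). With the mouse share of counts as a covariate, AKAP12 and NR4A3 passed with stress and NR4A2 and ATF3 did not (adjusted p = 0.0519 and 0.0502).

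CREM (chr10:35126791-35212958, plus strand) encodes activators and repressors that bind the cyclic AMP response element, among them ICER, a short repressor that cyclic AMP induces. Counts per gene do not separate ICER from the other CREM transcripts. CREM had CPM of 12.0, 15.4, 10.9, 15.3 and 12.0 without stress, 19.95, 14.2, 15.1, 15.95 and 18.6 with stress, and 15.3, 14.99, 20.1, 12.4 and 12.1 with post-stress. The 3 ranges overlapped, with 3 of 5 stress tumours and 1 of 5 post-stress tumours above every no-stress tumour. The log2 fold changes were 0.35 (SE 0.15, edgeR adjusted p = 0.136) for stress and 0.19 (SE 0.15, adjusted p = 0.582) for post-stress. The interval of the fold with stress ran from 1.03 to 1.59.

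PDE4D (chr5:58969038-60522120, minus strand) and PDE4B (chr1:65792514-66374579, plus strand), enzymes that hydrolyse cyclic AMP, were the most abundant of the 9 genes without stress, at 28.97 and 9.29 CPM per kilobase of exon. PDE4D had CPM of 458, 466, 498, 462 and 478 without stress, 532, 557, 655, 619.7 and 473 with stress, and 614, 583, 381, 412 and 395 with post-stress. With stress 4 of 5 tumours lay above every no-stress tumour. The post-stress tumours split around the narrow no-stress range, with 2 above it and 3 below. The log2 fold change was 0.26 for stress (SE 0.13, edgeR adjusted p = 0.205) and 0.01 for post-stress (SE 0.13, adjusted p = 0.972). PDE4B ranged from 59.3 to 93.0 CPM without stress, from 70.6 to 103 with stress and from 62.3 to 85.7 with post-stress, so that the groups overlapped throughout. Its log2 fold changes were 0.09 and -0.11 (SE 0.13 for both, adjusted p = 0.698 and 0.746), and the intervals of the fold, 0.882 to 1.29 and 0.766 to 1.12, leave room for a small change in either direction. Annotated genes on the opposite strand overlap PDE4D, PDE4B, CREM and NR4A1, and shared reads cannot be told apart because the strandedness of the counts is not given.

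SIK1 (chr21:43414483-43427189, minus strand) is a kinase that CREB switches on and that in turn keeps CREB's coactivators out of the nucleus. Its CPM were 2.32, 3.46, 3.03, 2.65 and 3.20 without stress, 4.89, 3.97, 4.51, 5.41 and 91.2 with stress, and 5.25, 4.24, 2.95, 3.36 and 17.2 with post-stress. Replicate 5 of each restrained group stood far above the other 4 tumours. All 5 stress tumours lay above the no-stress range, yet SIK1 did not pass (log2 fold change 2.90, SE 0.98, edgeR adjusted p = 0.0761). Without stress replicate 5 the log2 fold change was 0.68 (adjusted p = 0.362). For post-stress it was 1.17 (SE 0.98, adjusted p = 0.628), and 0.44 (adjusted p = 0.891) without post-stress replicate 5.

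SIK1 has a near-identical annotated copy, SIK1B, on the same chromosome, and most counts fell on the copy. Over the 15 libraries SIK1 received 2241 counts and SIK1B 23154. SIK1 took between 2.57% and 4.85% of the counts of both copies in 13 libraries, 34.8% in stress replicate 5 (1293 counts beside 2421 on SIK1B) and 24% in post-stress replicate 5 (241 beside 765). In a search made after these values were seen, SIK1 was the only 1 of 60649 human genes with at least 20 counts in both libraries and CPM over 3-fold above every other library in both. SIK1B itself had means of 87.3 ± 18.3, 131 ± 25.3 and 106 ± 35.6 CPM in the no-stress, stress and post-stress groups (SD, n = 5), and did not pass (log2 fold change 0.58, SE 0.23, edgeR adjusted p = 0.120 for stress). Summed over both copies the means were 90.2 ± 18.6, 153 ± 62.2 and 112 ± 31.6 CPM, and the sum did not pass either (log2 fold change 0.76, adjusted p = 0.0728 for stress). How reads were divided between the copies is not given in the sources used here, so the level of SIK1 alone is uncertain.

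**Figure D3:**
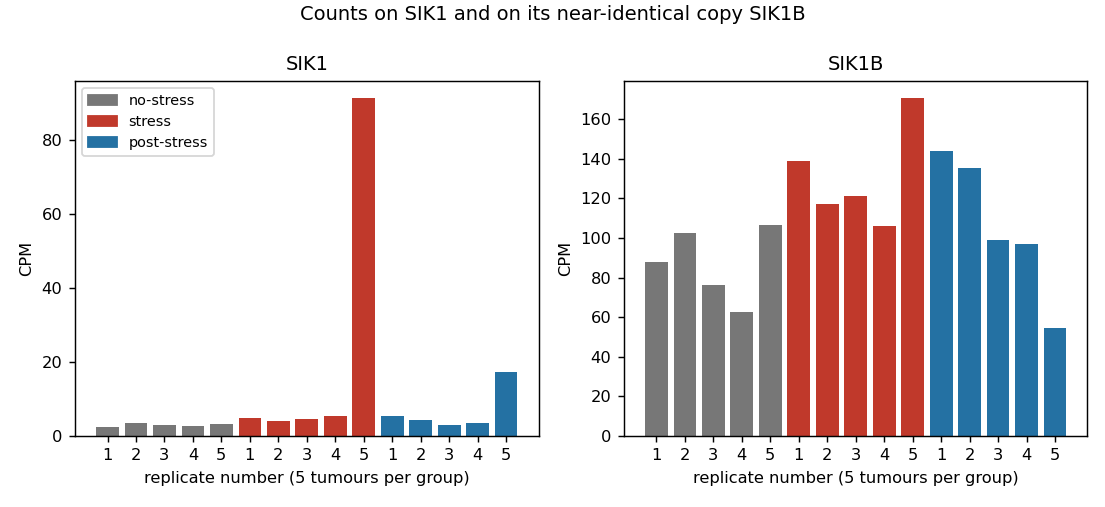
CPM (y axes, separate linear scales from 0) on SIK1 and on its copy SIK1B in each of the 15 tumours, 1 bar per tumour and coloured by group. Stress replicate 5 reaches 91.2 CPM on SIK1, post-stress replicate 5 reaches 17.2, and the other 13 tumours stay at or below 5.41, whereas SIK1B lies between 54.5 and 171 CPM in every tumour.

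Between the restrained groups none of the 9 genes passed, and 1 of them (AKAP12) had an unadjusted p under 0.05. The log2 differences of stress against post-stress were -0.05 for NR4A1, 0.14 for NR4A2, -0.05 for NR4A3 and 0.09 for ATF3, each smaller than its SE (edgeR adjusted p of at least 0.923). DESeq2's Wald test, which gave no adjusted p for SIK1, also called none of the 9 there, beside 1.32% of all genes with an adjusted p.

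The members varied together to different degrees over the 15 libraries, which share group, depth and host share. ATF3 had Pearson's r of log2 CPM of 0.88 with AKAP12, with NR4A1 and with NR4A2, and these stayed at 0.83, 0.78 and 0.78 after group means were subtracted. NR4A1 had r of 0.87 with NR4A2 and with NR4A3, and within groups 0.80 and 0.75. Some pairs were weaker within groups, as AKAP12 with NR4A1 (0.72 and within groups 0.54) and with NR4A3 (0.76 and 0.51). ATF3 with NR4A3 had 0.85 and within groups 0.65. CREM had r from 0.53 (NR4A3) to 0.76 (ATF3) with these 5 genes. SIK1 had r of at most 0.35 with any other member, and within groups at most 0.03. PDE4D had r from 0.19 (NR4A1) to 0.55 (AKAP12) with the same 5 genes and PDE4B from 0.12 (NR4A1) to 0.33 (AKAP12), and within groups their r with AKAP12 was 0.47 and 0.48. Stress replicate 4 was number 2 from the highest of the 15 libraries for AKAP12 but number 12 for NR4A1. With such exceptions, AKAP12, the NR4A genes and ATF3 tended to be high and low in the same tumours over all 15 libraries. The counts on SIK1 did not follow them, but they are 2241 beside 23154 on its copy SIK1B. No r was computed for SIK1B or for both copies summed, so the likeness of SIK1 to the other members is uncertain.

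Among 12293 other genes, those most like AKAP12 over the 15 libraries were IL6 (r 0.95), MAFK (0.93) and HK2 (0.93). The nearest to NR4A1 were GEM (0.91), DDIT3 (0.90) and RBCK1 (0.90), to NR4A2 STC1 (0.95), FAM162A (0.95) and MAFK (0.92), and to NR4A3 DAPK3 (0.91), GEM (0.89) and MOB3A (0.88). ATF3 was nearest to SLCO4A1 (0.97), GEM (0.94) and NFKB2 (0.92), so that GEM was among the nearest 3 of NR4A1, NR4A3 and ATF3. CREM was nearest to TIMM9 (0.84), ZFAND2A (0.83) and NOCT (0.83), and SIK1 to KLF13 (0.81), LRRC27 (0.77) and SPIN3 (0.77). For PDE4B the nearest were ZNF267 (0.81), H2BC15 (0.79) and QKI (0.79), and for PDE4D ZNF654 (0.89), TCF12 (0.87) and RLF (0.87). All these r were picked as the highest of 12293 over 15 libraries, which by itself yields high values, and no test was attached. After group means were subtracted they ran from 0.71 (NR4A3 with MOB3A) to 0.93 (ATF3 with SLCO4A1).

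ADRB1 and ADRB3, which encode receptors at the head of the pathway, were barely detected or not detected in these tumours. ADRB1 had 1 to 13 counts per library without stress, 4 to 11 with stress and 0 to 6 with post-stress, with means of 0.428, 0.503 and 0.230 CPM. ADRB3 had no counts in any library, which allows up to 3 counts or 0.186 to 0.229 CPM in a library for counting error alone. Neither had enough counts to be tested. ADRA1B and ADRA1D, which encode alpha receptors, were tested and neither passed. ADRA1B stood at means of 4.31, 4.62 and 4.67 CPM and ADRA1D at 1.19, 0.831 and 0.928. The log2 fold changes of ADRA1D were -0.52 with stress and -0.36 with post-stress (edgeR adjusted p = 0.398 and 0.693).

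The other genes of the pathway were read from lists of 107 genes, of which 82 were tested. With stress 11 rose and 2 fell, or 15.9% of those tested beside 10.5% of all tested genes. With post-stress 1 rose and none fell, or 1.22% beside 0.842% of all. As higher with stress, 5.23% of all tested genes passed. Of the 11 pathway genes that rose with stress, 8 were among the other CREB targets described below. None passed between the restrained groups. Their median log2 fold change with stress was 0.10, well below the 1.48 of the 9 genes. Most of the signalling machinery did not pass with stress. Among G proteins and adenylate cyclases 1 of 11 fell, among receptor kinases and arrestins 0 of 8 passed, among kinase subunits and EPAC 1 rose and 1 fell of 9, among other phosphodiesterases 1 of 12 rose, and in the CREB family with its coactivators 1 of 11 rose.

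The 2 genes that fell with stress were ADCY3, a cyclase that makes cyclic AMP, and PRKAR2A, a regulatory subunit of protein kinase A. ADCY3 had a mean of 85.6 ± 7.46 CPM without stress and 66.0 ± 7.92 with it (SD, n = 5, log2 fold change -0.38, edgeR adjusted p = 0.0197), with 3 of 5 stress tumours below every no-stress tumour. PRKAR2A fell from 70.4 ± 6.67 CPM to 51.6 ± 5.29 (log2 difference -0.45, adjusted p = 0.00436), with no overlap between the groups. RAPGEF3, which encodes EPAC1, a cyclic AMP sensor that acts apart from protein kinase A, rose from 1.21 ± 0.299 CPM to 2.32 ± 0.781 (log2 difference 0.94, adjusted p = 0.0348). PDE4A, a phosphodiesterase related to PDE4B and PDE4D, rose from 23.3 ± 1.82 CPM to 28.4 ± 1.64 (log2 difference 0.29, adjusted p = 0.0378). CREB5 rose from 4.66 ± 2.38 CPM to 9.59 ± 1.81 (log2 difference 1.04, adjusted p = 0.0311). The kinases related to SIK1, SIK2 and SIK3, did not pass, with log2 fold changes of -0.19 and -0.01. The catalytic subunit gene PRKACB stood at 21.0 to 36.0 CPM over all libraries, while PRKACA is listed at 2 counts in all 15 libraries together and no level was read from it.

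The median difference was larger among other known targets of CREB. With stress 8 of the 16 tested rose and none fell, where 5.23% of all tested genes passed as higher, and their median log2 fold change was 1.39. With post-stress 1 of 16 rose, where 0.596% of all tested genes passed as higher, and the median was 0.78. This list, too, was chosen with earlier results of these data known, and whether CREB acted on these genes here was not tested. IL6, which encodes a cytokine, ranged from 6.81 to 19.0 CPM without stress and from 34.4 to 57.7 with stress (log2 fold change 1.81, edgeR adjusted p = 0.00354). FOS, an immediate early transcription factor, ranged from 20.6 to 42.3 CPM without stress and between 60.1 and 164 with it (log2 fold change 2.02, adjusted p = 0.00625). The chemokine gene CXCL8 had a log2 fold change of 1.64 (adjusted p = 0.00814) and the phosphatase gene DUSP1 of 2.00 (adjusted p = 0.0106). All 5 stress tumours lay above every no-stress tumour for each of these 4 genes, but the share of all tested genes that do so was not computed. FOS was also the target that rose with post-stress (log2 fold change 1.81, adjusted p = 0.0389), with 4 of 5 tumours above the no-stress range.

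**Figure D4:**
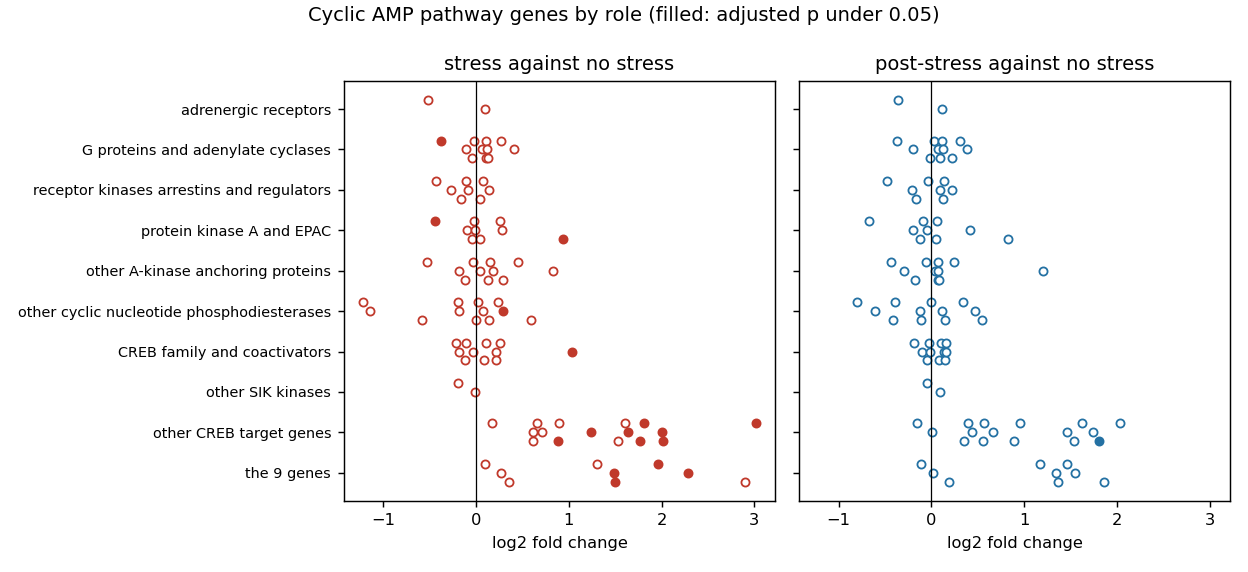
Log2 fold changes (x axis) of every tested gene of the cyclic AMP pathway, grouped by role on the y axis, for stress (left panel) and post-stress (right panel) against no stress, with filled points for adjusted p under 0.05. Cyclases, kinases and anchoring proteins lie mostly around 0. The other CREB targets (median 1.39 with stress and 0.78 with post-stress) and the 9 genes (1.48 and 1.34) lie mostly to the right. Among receptors, the alpha receptor ADRA1B lies at 0.09 and 0.11 and ADRA1D at -0.52 and -0.36. ADRB1 and ADRB3 were not tested and are not plotted.

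Most of the listed immediate early genes that respond to tissue handling, and of the listed low-oxygen genes, rose with stress, as did 4 of the 9 genes. Across all tested human genes 5.23% passed as higher with stress and 0.596% with post-stress. Of 8 immediate early genes 7 rose with stress and 2 with post-stress, and their summed CPM was 352 to 589.7 in the no-stress tumours, 860 to 1642 in the stress tumours and 558 to 1360 in the post-stress tumours. FOS, FOSB and DUSP1 are in this list and among the CREB targets above. Of 8 low-oxygen genes 7 rose with stress and 2 with post-stress, and their summed CPM was 642 to 1267, 2004 to 2875 and 1366 to 3261. Post-stress replicate 5, the lowest of its group for 6 of the 9 genes, was also the lowest of its group in both sums, while stress replicate 1, the highest library for 6 of the 9, was not the highest of its group in either. The part of these genes in the result was not tested. In whole-tumour RNA, fewer cells that express a gene and less of its RNA per cell cannot be told apart.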

How the data were processed

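RNA of 15 xenograft tumours, 5 per group, was extracted with TRIzol, per the labels. The deposited values are raw counts per gene for 60649 human and 56941 mouse genes, which the authors made with Trimmomatic (0.39), HISAT2 (2.2.1) and featureCounts (2.0.6) on hg38 and mm10, per the submitters' processing notes. Strandedness, annotation release and the handling of reads that match both species or 2 gene copies are not given in the sources used. Groups and replicate numbers came from the sample titles. Human symbols came from a reference table (60507 identifiers matched), exon lengths and positions from GENCODE 29 and promoter windows from RefSeq (GRCh38.p14).

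Human counts were filtered with filterByExpr, scaled with TMM and fitted for all 15 libraries at once with edgeR's robust quasi-likelihood test (edgeR 4.0.16, limma 3.58.1, R 4.3.3). P-values were adjusted by Benjamini-Hochberg over 15435 genes, and 99.81% of human counts were kept. Group SDs are of CPM. Alternatives were DESeq2 (1.42.0), DESeq2 size factors, limma-voom, other filters, only the groups compared, the mouse share as a covariate, the replicate block, SIK1 and SIK1B summed, and leaving out libraries. The procedure was tested on simulated data.

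The 9 genes, the pathway and marker lists and the tests were chosen with earlier results of these data known. The rule names all 9 genes, receptor genes, up to 4 called genes per list and comparison by smallest p, and the 3 genes most like each member in log2 CPM (prior count 2, mean log2 CPM of at least 1). A gene that the rule names is not reported here. Library comparisons found no repeated library (chi-square per gene of at least 12.0 within groups). That the 5 libraries of a group come from separate mice rests on the group sizes in the labels.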

Additional observations from a re-analysis of the deposited data

Results flagged for a closer look

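In a check of each of the 9 genes in each group of 5 libraries (27 groups), the library at one end was set apart when its gap to the nearest other library exceeded 0.71 of the range of the group. For independent values from a normal distribution this holds by chance in about 1 of 20 groups, and it held in 5 of these 27. The 27 groups share libraries and genes that vary together, and CPM were not checked for normality. No excess of outliers is therefore read from these numbers.

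Stress replicate 1 was set apart for 3 genes. It had 56.5 CPM of NR4A2, where the other 4 stress tumours had 24.9 to 32.2, and 13.9 CPM of NR4A3, where the others had 3.92 to 5.59. For ATF3 it had 67.5 CPM beside 16.4 to 28.7. Its share of counts on mouse genes (20.8%) and its human counts lay inside the range of the other libraries.

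Replicate 5 of both restrained groups was set apart for SIK1. The stress tumour had 91.2 CPM beside 3.97 to 5.41 in the rest of its group, and the post-stress tumour 17.2 CPM beside 2.95 to 5.25. The copy SIK1B had 171 CPM in that stress tumour, the highest of the 15 libraries, and 54.5 in that post-stress tumour, the lowest.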

How the results depend on the processing

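With stress the number of the 9 genes that passed (4) was 5 with DESeq2's Wald test, 1 with limma-voom, 1 with no filter, 2 with the replicate block, 2 with the mouse share as a covariate, 1 without no-stress replicates 1 and 5 together, and 1 to 5 with single libraries left out. It was 2 without no-stress replicate 2, 3 or 4 or stress replicate 5. With post-stress (0) it was 5 with DESeq2's Wald test and 0 to 2 with single libraries left out. Replicate numbers did not pair the libraries: same-numbered libraries correlated at -0.19 to 0.12, and 1 of 15 libraries correlated best with its own number. All human genes that passed with stress (1613) numbered 2167 with DESeq2's Wald test, 990 with the replicate block and 546 without no-stress replicates 1 and 5 together. They numbered 661 to 1834 with single libraries left out. With limma-voom, with no filter and with the covariate they stayed within 1.5-fold of 1613. With post-stress (130) they numbered 504 with DESeq2's Wald test, 49 with only the groups compared, 57 with the replicate block, 38 with the covariate, 32 without no-stress replicates 1 and 5 together and 37 to 144 with single libraries left out. Between the restrained groups (6) they numbered 203, 1, 0 and 0 under the first 4 of these settings, 36 with no filter and 0 to 189 with single libraries left out. Of the members' log2 fold changes, none changed sign with stress (216 values), 5 did with post-stress and 17 between the restrained groups. PDE4D with post-stress was -0.017 with limma-voom, -0.0023 with the replicate block, -0.10 with the covariate and -0.084 to 0.085 with single libraries left out. Between the restrained groups the covariate gave 0.012 for NR4A1 and 0.16 for NR4A3, and leaving out single libraries gave -0.41 to 0.15 for NR4A1, -0.11 to 0.32 for NR4A2, -0.53 to 0.18 for NR4A3, -0.44 to 0.25 for ATF3 and -0.49 to 2.47 for SIK1. The cause of these shifts was not tested.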
